A study of Mus musculus with 8 samples.

Results

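The genes described here are 40 genes of glycolysis and of the response to low oxygen, chosen by name. A probe set of the array was counted for a gene where the platform annotation gave it exactly 1 symbol. By this rule 79 probe sets stood for 37 of the 40 genes. No probe set was named for Gpi1 or Eno1 alone, and the 3 probe sets naming Bnip3l also named another symbol, so these genes have no value here. Of the 79 probe sets, 74 were bright enough to be tested, and they stand for 36 genes, 19 of glycolysis and 17 of the hypoxia response. The whole test covered 27026 probe sets and 13259 genes. Car9, the hypoxia-induced carbonic anhydrase, was too dim for the test (signal 137 to 253 on the 8 arrays).

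Glycolysis splits glucose into pyruvate in the cytosol, and lactate dehydrogenase turns pyruvate into lactate when it does not enter mitochondria. Hypoxia-inducible factors (HIF) couple this pathway to oxygen. Prolyl hydroxylases of the Egln family mark HIF alpha subunits in the presence of oxygen, the VHL protein then leads them to degradation, and in low oxygen the alpha subunit pairs with Arnt and induces glycolytic enzymes, glucose uptake, vessel growth factors and mitophagy receptors. Because this switch acts on the HIF protein, messenger RNA levels of the targets and not of Hif1a itself are its usual transcript readout.

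The cells were subcutaneous preadipocytes, precursors of fat cells, from day 2 newborn mice of C57BL/6 background whose Dicer alleles are lox/lox in every sample. Controls (4 arrays) received an adenovirus with eGFP, and Dicer knockout samples (4 arrays) an adenovirus with Cre recombinase and eGFP, each named as under a CMV promoter, at 750 MOI with 4 µg/mL polybrene. RNA was taken 4 days later from cells grown in serum-containing medium under a humidified CO2 atmosphere, and the labels name no low-oxygen treatment. No array holds Cre in cells without floxed alleles, so effects of Cre or of the virus and of Dicer loss cannot be told apart. The labels name biological replicates 1 to 4 in each group without saying which animals or cultures they came from, so a p-value reflects only how these samples vary, which may be technical.

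Array medians were 321.1 to 418.9 and the Gapdh 3′ to 5′ control ratio was 0.956 to 1.13, and that of beta-actin 1.66 to 2.06. For Dicer1 itself the brighter probe set differed by -0.15 on the log2 scale (SE 0.20, adjusted p = 0.999 by limma). The labels do not say whether it lies in the floxed segment, so it does not check the deletion. The 8 stromal markers measured were bright (mean signals 6196 for Cd34 to 125820 for Col3a1). Markers of other cell types were dimmer. No signal of any probe set was at 0, so a positive value does not show that a transcript was present. Itgam, Tie1, Alas2, Krt15, Cidec and Lep averaged below 73.1, the 20th percentile of all values. The 7 macrophage and leukocyte markers averaged from 11.5 (Itgam) and 91.8 (Ptprc) to 1175 (Cd68), and their sum was 3518 to 4462 on control and 3304 to 3799 on knockout arrays. The 6 endothelial markers averaged from 14.9 (Tie1) and 107.5 (Pecam1) to 1010 (Kdr), with sums of 1871 to 2593 and 1800 to 2450. The 5 epithelial markers had sums of 1572 to 2160 and 1910 to 2651, and only Epcam was bright enough to be tested. Epcam averaged 1491 and read higher in the knockout (log2 difference 0.42, SE 0.17, limma unadjusted p = 0.034, adjusted p = 0.999). Cdh1 leaned lower there (72.1 to 174 on control and 22.8 to 88.3 on knockout arrays). Krt5 read 56.6 to 285 and 237 to 360, Krt14 read 169 to 317 and 79.2 to 341, and Krt15 averaged 31.1. The erythroid markers Hba-a1 and Alas2 averaged 76.7 and 16.4. The 6 fat-cell markers measured had sums of 3998 to 6786 and 3935 to 8873. Of these, 3 were tested and 0 passed in either fit. Fabp4 read 2080, 3941, 3057 and 3493 in controls 1 to 4 and 1877, 5961, 5952 and 6206 in knockouts 1 to 4. Pparg read 499 to 925 and 698 to 1040, and Cebpa 1261 to 1988 and 1195 to 1567. Adipoq, Cidec and Lep were dim, with means of 83, 42.6 and 63.2. The 5 skeletal muscle markers summed to 1176 to 1471 on control arrays and 1588 to 2400 on knockout arrays, without overlap. This held for the sum and not for most single markers. The 3 tested, Myod1, Acta1 and Ckm, had log2 differences of 0.53 to 0.74, but each overlapped between groups and 0 passed in either fit. At an unadjusted limma p under 0.05 the unpaired fit held 1 of them and the paired fit 1, against 3.93% and 10.3% of all genes. Mylpf, not tested, also overlapped (187 to 309 and 58.1 to 310). Myog did not overlap (19.9 to 45.1 and 50.2 to 197), but it averaged 73.4, near the 20th percentile, and was not tested. Muscle is rich in glycolytic enzymes, and the part of any of these markers in the results below was not tested. Arrays of the same number shared their deviations, so values with the replicate number as a block (the paired fit) are given beside those without it.

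Transcripts of glycolysis and of the hypoxia response did not pass the test between Dicer knockout and control. By limma, 0 of 36 genes passed at an adjusted p of 0.05 in the unpaired fit, where 0 of all 13259 genes (0%) did, and the adjusted p of each of the 36 was 0.999. The paired fit also called 0 of the 36, against 10 of all genes (0.0754%; 0.0603% higher and 0.0151% lower). At an unadjusted limma p under 0.05 the unpaired fit held 1 of the 36, Epas1, against 3.93% of all genes. The paired fit held 5 at that level, Pgam1, Higd1a and P4ha1 with values above 0 and Epas1 and Ndrg1 with values below 0, against 10.3% of all genes. In 0 of the 36 did the control and knockout arrays separate without overlap, against 2.52% of all genes.

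**Figure D1:**
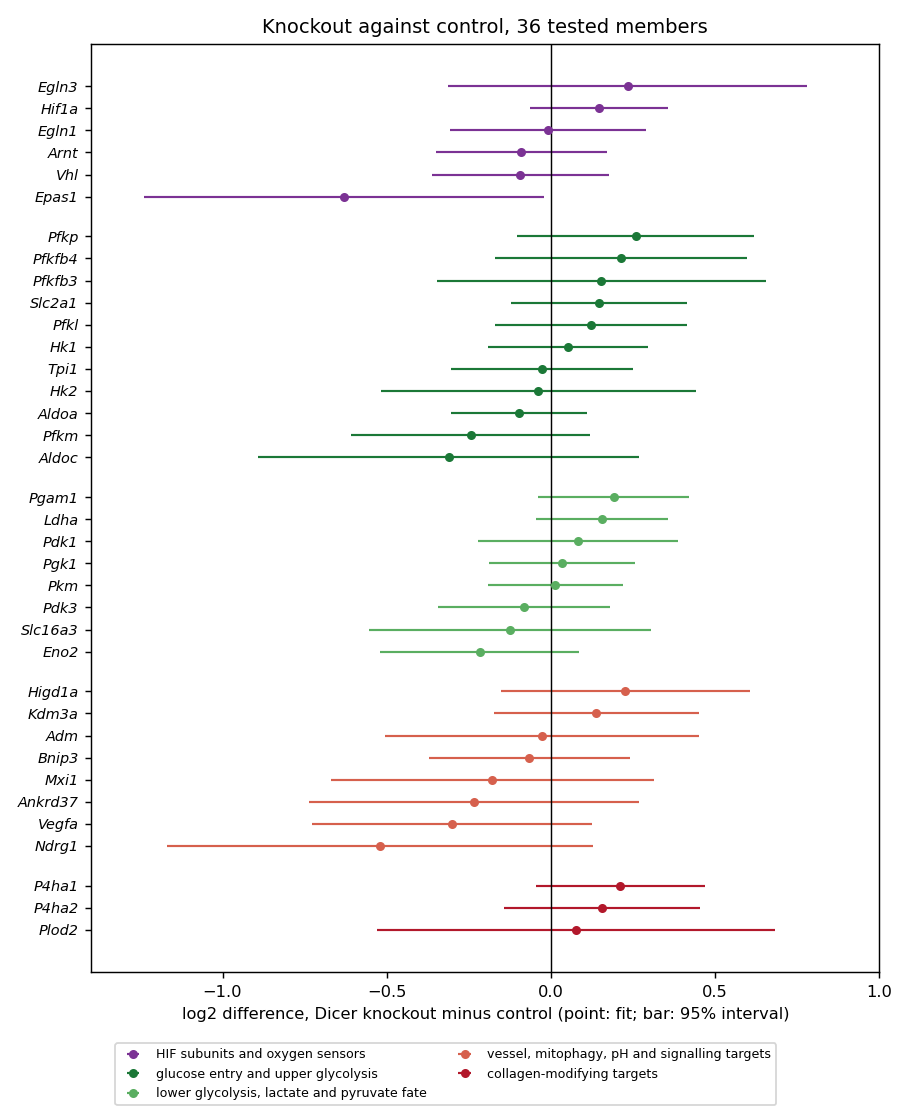
Log2 difference in signal, Dicer knockout minus control, for the 36 tested genes in 5 role groups, with points for the fitted value and bars for its 95% interval over 4 arrays per group. Intervals are from the unpaired fit. All but that of Epas1, which ends at -0.02, include 0, and the limma adjusted p of Epas1 was 0.999.

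The intervals, all from the unpaired fit, say which sizes of difference these arrays leave possible in that fit. The 95% interval of the log2 difference lay wholly within 0.5 of 0 for 11 of 19 glycolysis genes and 8 of 17 hypoxia genes, as for 6316 of the 13259 genes tested. It lay within 1 of 0, a doubling or halving, for 34 of the 36, and the exceptions were Epas1 (-1.24 to -0.02) and Ndrg1 (-1.17 to 0.13). The paired fit had smaller SEs for both, 0.20 against 0.28 for Epas1 and 0.10 against 0.30 for Ndrg1. Intervals of the paired fit, which would be narrower for these genes, are not given. The median log2 difference was 0.03 over the glycolysis genes (11 above 0, 8 below) and -0.03 over the hypoxia genes (7 above 0, 10 below), beside -0.002 over all tested genes, of which 49.6% were above 0. Of the 5 role groups, that of lower glycolysis, lactate and pyruvate fate had the narrowest intervals, with a median half-width of 0.25. For the vessel, mitophagy, pH and signalling targets it was 0.45. For these cell cultures, fewer cells of a type and less RNA per cell cannot be told apart.

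Neither class of genes moved the same way in all replicate pairs. For the glycolysis genes the median difference within pairs 1 to 4 was -0.0235, 0.0678, -0.0641 and 0.0851. For the hypoxia genes it was -0.0928, 0.0311, 0.0484 and -0.0746, and its sign over all arrays turned with array weights (0.00958) and without knockout array 2 (0.0171). The pair medians of both classes thus lay on either side of 0, with an SD over pairs of 0.0717 and 0.072. Of the single genes, 2 were higher in the knockout of all 4 pairs, Ldha and P4ha1, against 8.64% of all genes. Another 6 were lower in all 4, Arnt, Vhl, Aldoa, Eno2, Pdk3 and Ndrg1, against 9.44%.

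**Figure D2:**
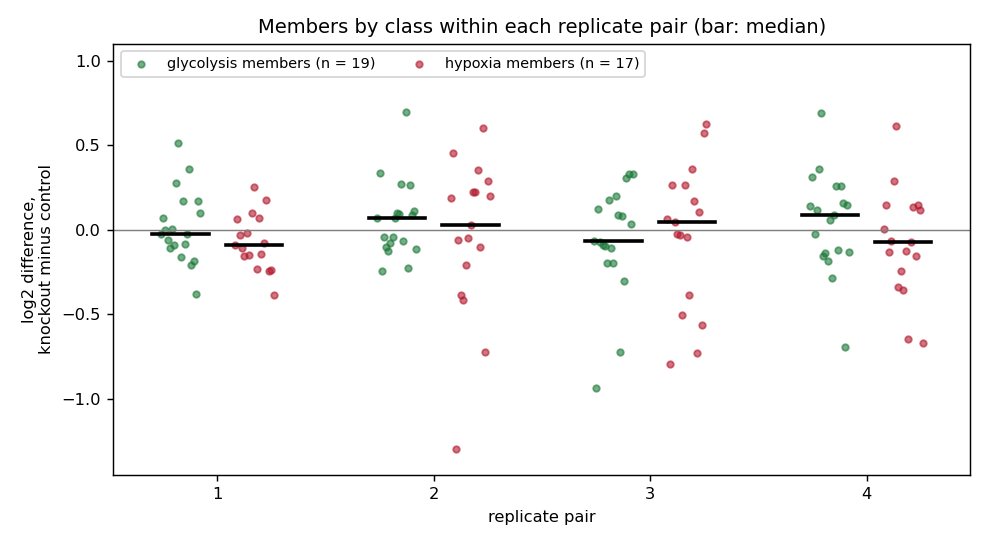
Log2 difference, knockout minus control, within each replicate pair, with a point for each of 19 glycolysis and 17 hypoxia genes and a bar at the class median. The medians stay between -0.0928 and 0.0851 while single genes spread much further, from -1.30 to 0.70.

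The HIF binding core is short, ACGTG or GCGTG, and the letters were looked up in the 250 bases before each gene's start in RefSeq (GRCm38.p6), on both strands. A palindromic CACGTG counts on both. Of the 40 genes 36 had an entry, and 32 of these (88.9%) held at least 1 match, against 59.1% of the tested genes with an entry and 41.5% of all genes in the table. The share was 85.7% in the glycolysis genes and 93.3% in the hypoxia genes. The stricter ACGTG was found for 58.3% of the 36, against 24.4% of tested genes. The core holds a CG step, and the windows of the 36 genes had a median of 19 CG steps (the richest window of each gene) against 16 for tested genes. The 36 also have more windows per gene (54 windows) than the tested genes (13602 windows for 10666 genes). The part of base composition or of the number of windows in these shares was not tested, and a match is a description of letters, not a bound site. Shown here are Ldha and Pgk1, bright enzymes that differed neither between groups nor between replicate numbers beyond the threshold, and Hk2, Adm and Mxi1, which did differ between replicate numbers. Matches are in capitals, and each sequence runs 5′ to 3′ on the gene's strand and ends at the base before its start.
Ldha, chr7:46845554-46845803, plus strand: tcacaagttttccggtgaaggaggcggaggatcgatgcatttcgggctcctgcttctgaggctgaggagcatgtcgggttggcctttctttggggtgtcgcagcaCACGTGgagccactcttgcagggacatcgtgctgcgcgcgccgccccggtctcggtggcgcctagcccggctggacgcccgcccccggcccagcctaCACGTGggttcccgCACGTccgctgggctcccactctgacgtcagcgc
Pgk1, chrX:106186850-106187099, plus strand: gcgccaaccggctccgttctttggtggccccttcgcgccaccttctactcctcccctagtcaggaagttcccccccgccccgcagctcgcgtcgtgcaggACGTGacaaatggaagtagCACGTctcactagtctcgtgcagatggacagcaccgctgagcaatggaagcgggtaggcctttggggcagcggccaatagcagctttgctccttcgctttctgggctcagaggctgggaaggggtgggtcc
Hk2, chr6:82774455-82774704, minus strand: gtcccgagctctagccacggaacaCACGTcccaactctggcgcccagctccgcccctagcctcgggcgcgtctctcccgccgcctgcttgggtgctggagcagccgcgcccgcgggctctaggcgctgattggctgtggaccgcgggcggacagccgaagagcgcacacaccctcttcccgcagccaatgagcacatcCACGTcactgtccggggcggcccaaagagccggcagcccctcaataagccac
Adm, chr7:110627407-110627656, plus strand: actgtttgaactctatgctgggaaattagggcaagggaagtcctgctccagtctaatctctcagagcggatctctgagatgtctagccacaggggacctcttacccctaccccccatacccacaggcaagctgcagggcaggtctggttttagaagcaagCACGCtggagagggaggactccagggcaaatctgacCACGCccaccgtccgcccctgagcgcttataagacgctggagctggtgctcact
Mxi1, chr19:53329163-53329412, plus strand: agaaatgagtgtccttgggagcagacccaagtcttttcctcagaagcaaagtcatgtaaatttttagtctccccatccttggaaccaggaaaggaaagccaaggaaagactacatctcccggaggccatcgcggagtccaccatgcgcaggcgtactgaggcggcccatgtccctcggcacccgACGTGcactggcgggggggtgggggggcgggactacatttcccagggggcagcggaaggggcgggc

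The Ldha window holds 5 matches, between 145 and 34 bases before the start. Pgk1 has 2, at 150 and 131 bases, and Hk2 has 2, at 226 and 52 bases. Adm has 2 of the GCGTG form, at 90 and 54 bases, and Mxi1 has 1 at 66 bases before the printed start. Matches were thus present both in Hk2, Adm and Mxi1, called for replicate number, and in genes that did not pass any test. Ndrg1 and Plod2, also called for replicate number, had no entry, nor had Epas1 and Bnip3l, so these were not looked up. None was found for Vhl, Tpi1, Gpi1 and Eno2.

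Among the HIF subunits and oxygen sensors, Hif1a was bright and did not pass the test. Hif1a, the oxygen-regulated alpha subunit of HIF-1, read 19724, 20894, 19934 and 19810 in controls 1 to 4 and 19475, 23861, 23992 and 21945 in knockouts 1 to 4. Knockout arrays 2 to 4 lay above all controls and knockout 1 below them, so the groups overlapped (log2 difference 0.15, SE 0.10, limma adjusted p = 0.999). A fainter Hif1a probe set had a difference of 0.18 (SE 0.14) and was higher in the knockout of all 4 pairs (limma paired adjusted p = 0.576). The other 2 were dim, read in the opposite direction (-0.19, SE 0.52, and -0.22, SE 0.23), and turned the mean over all 4 Hif1a probe sets to -0.0199.

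Epas1, the related HIF-2 alpha subunit prominent in vessels and fat, had the largest difference of the 36. It read 1431, 2400, 2157 and 1109 in controls 1 to 4 and 1630, 933, 1272 and 670 in knockouts 1 to 4. The knockout was lower in pairs 2, 3 and 4 and higher in pair 1, and the groups overlapped. The log2 difference was -0.63 (SE 0.28, 1.55-fold, limma adjusted p = 0.999; paired SE 0.20, paired adjusted p = 0.331). It ranged from -0.824 without control 4 to -0.422 without knockout 4 in the unpaired fit. In the paired fit it was -0.407 without pair 2 and -0.899 without pair 1 (adjusted p = 0.0692). Only 1 of its 2 probe sets was bright enough to be tested.

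By their brightest probe sets, the constitutive partner Arnt and the degradation factor Vhl were each lower in all 4 pairs by small amounts. Vhl read 3329, 3715, 3379 and 4119 in controls 1 to 4 and 3002, 3589, 3274 and 3748 in knockouts (log2 difference -0.09, SE 0.12). The dimmer Vhl probe set gave -0.02 (SE 0.23) and was lower in 2 pairs. Arnt averaged 2975 ± 257 in controls against 2788 ± 217 in knockouts (n = 4 each, ± SD; log2 difference -0.09, SE 0.12), and its 4 other tested probe sets ran from -0.16 to 0.46. The Arnt probe set at 0.46 was higher in all 4 pairs. Of the prolyl hydroxylases, Egln1, the main oxygen sensor, had a difference of -0.01 (SE 0.14) and averaged 2965 ± 283 and 2960 ± 456.5 (SD, n = 4 each). Egln3, itself hypoxia-induced, was dim, at 350, 298, 543 and 227 in controls and 380, 491, 399 and 386 in knockouts (log2 difference 0.23, SE 0.25). All of these differences were within the spread between arrays.

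**Figure D3:**
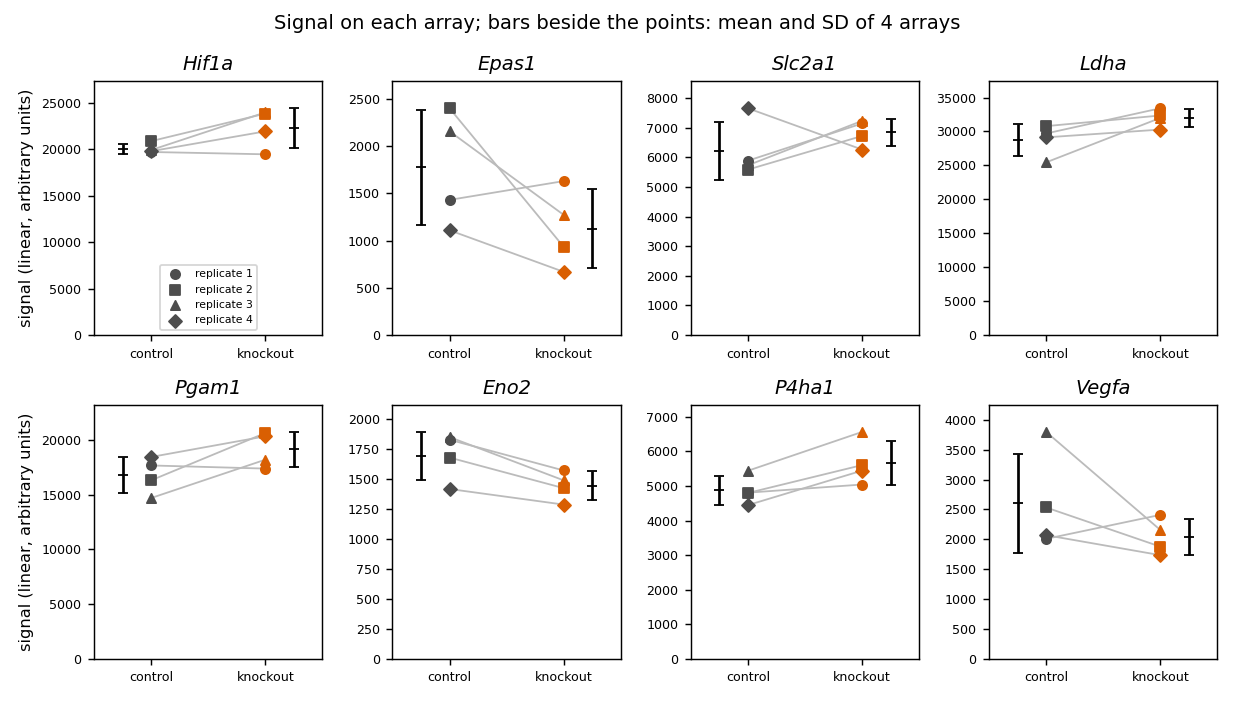
Signal (linear scale, from 0) on each array for 8 genes, with lines joining same-numbered control and knockout arrays, and bars beside the points for the mean and SD of 4 arrays. In each panel the control and knockout points overlap; the Ldha and P4ha1 lines all slope up and the Eno2 lines all slope down, while 1 Epas1 line of 4 slopes up.

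Genes of glucose entry and upper glycolysis showed small differences of either sign. Of 11 tested, 6 had values above 0 and 5 below, from -0.31 to 0.26 on the log2 scale. Slc2a1, the glucose transporter GLUT1, read 5886, 5584, 5730 and 7656 in controls 1 to 4 and 7142, 6719, 7230 and 6263 in knockouts 1 to 4. The knockout was higher in pairs 1 to 3 and lower in pair 4, where the control array stood above the other controls (log2 difference 0.15, SE 0.12). The other 2 Slc2a1 probe sets gave 0.16 (SE 0.13) and 0.17 (SE 0.14), in the same direction.

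The hexokinases trap glucose in the cell. Hk1, the general form, averaged 6593 ± 734 in controls against 6814 ± 372 in knockouts (n = 4 each, ± SD; log2 difference 0.05, SE 0.11; -0.36, SE 0.27, by its other probe set). Hk2, the inducible form, read 1303, 1400, 2245 and 1209 in controls 1 to 4 and 1401, 1168, 2101 and 1287 in knockouts 1 to 4. Both arrays numbered 3 were the highest of their group, and the difference between groups was -0.04 (SE 0.22).

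The phosphofructokinase subunits, which form the committed step, leaned in different directions without passing the test. Pfkm, the muscle type subunit, read 3689, 3952, 4698 and 6354 in controls 1 to 4 and 3238, 4238, 4088 and 3895 in knockouts (log2 difference -0.24, SE 0.17). Control 4 was the highest, and without it the difference was -0.088. Pfkp, the platelet type subunit, read 957, 1364, 1299 and 897 in controls and 1251, 1266, 1377 and 1495 in knockouts (log2 difference 0.26, SE 0.17; -0.08, SE 0.27, by its dimmer probe set). Pfkl, the liver type subunit, averaged 3977 ± 586 and 4316 ± 449 (SD, n = 4 each; log2 difference 0.12, SE 0.13). Each subunit's groups overlapped.

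Pfkfb3 and Pfkfb4 make the fructose bisphosphate that activates phosphofructokinase. Pfkfb4 read 1923, 1425, 1944 and 1259 in controls 1 to 4 and 1918, 2358, 1686 and 1635 in knockouts (log2 difference 0.21, SE 0.18), with knockout 2 above all others. Pfkfb3 was dim, 329 ± 28.1 and 381 ± 98.6 (SD, n = 4 each; log2 difference 0.15, SE 0.23). Further along, the aldolase Aldoa averaged 26340 ± 1566 and 24630 ± 1949 (SD, n = 4 each; log2 difference -0.10, SE 0.10), and its other 4 probe sets gave -0.07 to -0.09. Aldoc, the brain type aldolase, was dim, at 523 ± 161 and 410 ± 134 (SD, n = 4 each; log2 difference -0.31, SE 0.27). Tpi1, triose phosphate isomerase, averaged 24540 ± 4266 and 23930 ± 2518 (SD, n = 4 each; log2 difference -0.03, SE 0.13), and 1 of its other 2 probe sets gave 0.12.

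In lower glycolysis and the fate of pyruvate, 5 of 8 tested genes had values above 0 and 3 below, from -0.22 to 0.19. Ldha, which makes lactate, read 29701, 30782, 25449 and 29130 in controls 1 to 4 and 33416, 32354, 31995 and 30278 in knockouts 1 to 4. It was higher in the knockout of every pair, by a small amount (log2 difference 0.16, SE 0.09, limma adjusted p = 0.999, paired adjusted p = 0.563). Knockout 4 lay below control 2, so the groups overlapped.

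Pgam1, phosphoglycerate mutase, read 17656, 16300, 14684 and 18431 in controls 1 to 4 and 17370, 20620, 18184 and 20319 in knockouts (log2 difference 0.19, SE 0.11, limma paired adjusted p = 0.5). The knockout was higher in pairs 2 to 4. Eno2, the neuronal enolase also induced by HIF, read 1826, 1678, 1849 and 1416 in controls and 1570, 1423, 1488 and 1286 in knockouts (log2 difference -0.22, SE 0.14, limma paired adjusted p = 0.619). It was lower in every pair, and control 4 lay among the knockouts.

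Further genes of this stretch had smaller differences that did not pass the test. Pgk1, phosphoglycerate kinase, averaged 26780 ± 1413 and 27530 ± 2971 (SD, n = 4 each; log2 difference 0.03, SE 0.10). Pkm, pyruvate kinase, averaged 19480 ± 1690 and 19620 ± 644 (SD, n = 4 each; log2 difference 0.01, SE 0.09). The interval of Pkm reached from -0.19 to 0.22, among the narrowest of the 36. Slc16a3, the lactate exporter MCT4, was dim (599 ± 65.9 and 551 ± 123, SD, n = 4 each; log2 difference -0.12, SE 0.20). Pdk1 and Pdk3, pyruvate dehydrogenase kinases, had differences of 0.08 (SE 0.14) and -0.08 (SE 0.12), and the other 2 tested Pdk1 probe sets read below 0.

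Among the vessel, mitophagy, pH and signalling targets, 2 of 8 tested genes had values above 0 and 6 below. Ndrg1, a stress-induced gene of differentiation and a strong hypoxia marker, stood closest to the threshold. Its brightest probe set read 8919, 5213, 5810 and 4373 in controls 1 to 4 and 8037, 3129, 3916 and 2767 in knockouts 1 to 4. The knockout was lower in each pair, by -0.15, -0.72, -0.56 and -0.65 on the log2 scale, but the arrays numbered 1 of both groups were so high that the groups overlapped. The log2 difference was -0.52 (SE 0.30, limma adjusted p = 0.999; paired SE 0.10, paired adjusted p = 0.124).

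The Ndrg1 result depended on pair 1. Without both arrays of that pair the paired fit called Ndrg1 lower (log2 difference -0.644, adjusted p = 0.0347), the only one of the 36 so called in any fit run, and that fit called 80 probe sets in all against 13 with every pair. Without pairs 2, 3 or 4 the adjusted p was 0.461, 0.405 and 0.336. The other 4 Ndrg1 probe sets also had values below 0, -0.44 (paired SE 0.15), -0.48 (paired SE 0.14), -0.45 (paired SE 0.19) and -0.19 (paired SE 0.42). In the unpaired fit the difference was -0.843 without knockout 1 and -0.32 without control 1.

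Vegfa, the main vessel growth factor, read 2007, 2532, 3796 and 2069 in controls 1 to 4 and 2409, 1877, 2156 and 1734 in knockouts 1 to 4. Control 3 stood high, and the knockout was lower in pairs 2 to 4 (log2 difference -0.30, SE 0.20, limma paired adjusted p = 0.594). Without control 3 it was -0.108, and its other probe set gave 0.12 (SE 0.19), in the opposite direction. Higd1a, a mitochondrial survival protein, read 12083, 12009, 11596 and 17498 in controls and 11325, 14699, 17269 and 19254 in knockouts (log2 difference 0.23, SE 0.17, limma paired adjusted p = 0.526). Arrays numbered 4 were the highest of both groups. It was 0.365 without control 4 and 0.118 without knockout 4.

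The remaining targets gave differences within their spread. The vasodilator peptide gene Adm read 3839, 1903, 2746 and 2732 in controls 1 to 4 and 3749, 2199, 2872 and 2143 in knockouts (log2 difference -0.03, SE 0.22). Its other probe set gave 0.33 (SE 0.31, paired SE 0.13), so the direction of Adm is not settled. Mxi1, a Myc antagonist, read 2902, 2223, 2185 and 1619 in controls and 3037, 1912, 1521 and 1546 in knockouts (log2 difference -0.18, SE 0.23; 0.15 by its dimmer probe set). Bnip3, a mitophagy receptor, averaged 4113 ± 668 and 3910 ± 445 (SD, n = 4 each; log2 difference -0.07, SE 0.14). Kdm3a, a histone demethylase that needs oxygen, averaged 3508 ± 575 and 3840 ± 391 (SD, n = 4 each; log2 difference 0.14, SE 0.14). Ankrd37, an ankyrin repeat gene, was dim (524 ± 118.5 and 438 ± 118, SD, n = 4 each; log2 difference -0.23, SE 0.23).

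The 3 collagen-modifying targets all had values above 0, and 0 passed. P4ha1, a collagen prolyl hydroxylase subunit, read 4805, 4796, 5438 and 4444 in controls 1 to 4 and 5040, 5602, 6561 and 5442 in knockouts 1 to 4. It was higher in every pair, and knockout 1 lay below control 3 (log2 difference 0.21, SE 0.12, limma paired adjusted p = 0.473). The dimmer P4ha1 probe set gave 0.07 (SE 0.22) and was higher in 2 pairs. P4ha2, its paralog, read 2642, 2178, 2447 and 2308 in controls and 2230, 2801, 3164 and 2560 in knockouts (log2 difference 0.16, SE 0.14). Plod2, which hydroxylates collagen lysines, read 5540, 7843, 6592 and 11388 in controls and 4229, 9159, 10198 and 10235 in knockouts (log2 difference 0.08, SE 0.28). Arrays numbered 1 were the lowest of both groups for Plod2, and its other probe set gave -0.002 (SE 0.21).

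Some of these genes differed between replicate numbers, 13.9% of the 36 against 9.37% of all tested genes. The gap between these shares was not tested. Each number is carried by 1 control and 1 knockout array, and limma's moderated F test of the 3 terms for replicate number, with group in the fit, called 5 of the 36 genes at an adjusted p of 0.05, against 9.37% of all tested genes. They were Ndrg1 (adjusted p = 0.0016), Plod2 (0.0156), Adm (0.0225), Mxi1 (0.0293) and Hk2 (0.0392). By class they were 4 of 17 hypoxia genes (23.5%) and 1 of 19 glycolysis genes (5.26%), and the difference between the classes was not tested. Ndrg1 averaged 8478 over the arrays numbered 1 and 4171, 4863 and 3570 over those numbered 2, 3 and 4. Adm and Mxi1 were likewise highest on the arrays numbered 1 of both groups, and Plod2 lowest there, whereas Hk2 was highest on those numbered 3.

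**Figure D4:**
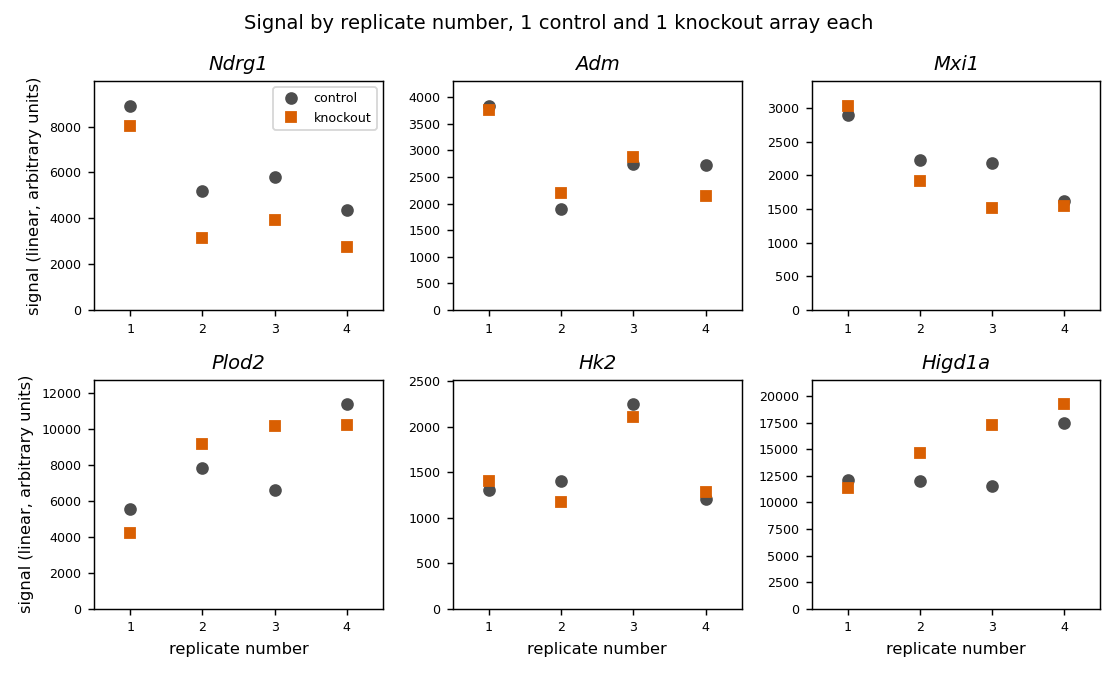
Signal (linear scale, from 0) against replicate number for the 5 genes called for replicate number and for Higd1a, with a circle for the control and a square for the knockout array of each number. For Ndrg1, Adm and Mxi1 both arrays numbered 1 lie above all others, for Plod2 both lie below, and for Hk2 both arrays numbered 3 lie above.

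The count of 5 moved with the setting, and so did the share of all tested genes called. Without the arrays numbered 1 it was 1 (Hk2), against 3.21% of all genes, and without those numbered 4 it was 2 (Adm and Ndrg1), against 2.52%. Without the arrays numbered 2 or 3 it stayed 5, with Higd1a entering for Adm or for Hk2, against 9.71% and 8.63%. It was 2 without a filter on dim probe sets (Adm and Ndrg1, 3.67% of all genes), 2 with median centring (Mxi1 and Ndrg1, 3.54%) and 0 without the mean-variance trend (0%). It was 6, with Higd1a added, with the pseudocount at the median of all values (10.4%), the upper 40% of probe sets (15.2%) or array weights (8.98%). The second Adm probe set gave a limma adjusted p of 0.0072 and a second Ndrg1 probe set 0.0035. The remaining Ndrg1 probe sets gave 0.061, 0.079 and 0.286, above the threshold. For Mxi1 the dimmer probe set gave 0.672.

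Other measures moved with the replicate number too, and their part in these differences was not tested. Of the 8 stromal markers 4 were called for replicate number, in different directions. The arrays numbered 1 had the highest Pdgfra (22303 against 13240 to 16091 on the means of other numbers), Pdgfrb (27041 against 11424 to 24513) and Dlk1 (66542 against 20885 to 37595), and the lowest Col3a1 (98264 against 119759 to 147359). Cd34, Thy1, Col1a1 and Col1a2 were not called. The same arrays had the lowest Fabp4 (1979 against 4505 to 4951), the only one of 3 tested fat-cell markers called. They also had the lowest neural marker Ngfr (1136 against 3730 to 7032). Sox10, the other tested marker of Schwann and neural cells, read 449 and 472 there and 403 to 947 elsewhere. The limma adjusted p for replicate number was 0.0095 for Pdgfra, 0.000136 for Pdgfrb, 0.000517 for Dlk1, 0.0155 for Col3a1, 0.0091 for Fabp4 and 7.7e-05 for Ngfr. Dlk1 was also lower in the knockout in the paired fit (log2 difference -0.72, paired SE 0.11, adjusted p = 0.0436, lower in 4 of 4 pairs), as Ndrg1 read. The 5′ probe set of 18S ribosomal RNA split the arrays in another way, at 5906 to 14007 on those numbered 1 and 3 and 30584 to 43030 on those numbered 2 and 4.

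**Figure D5:**
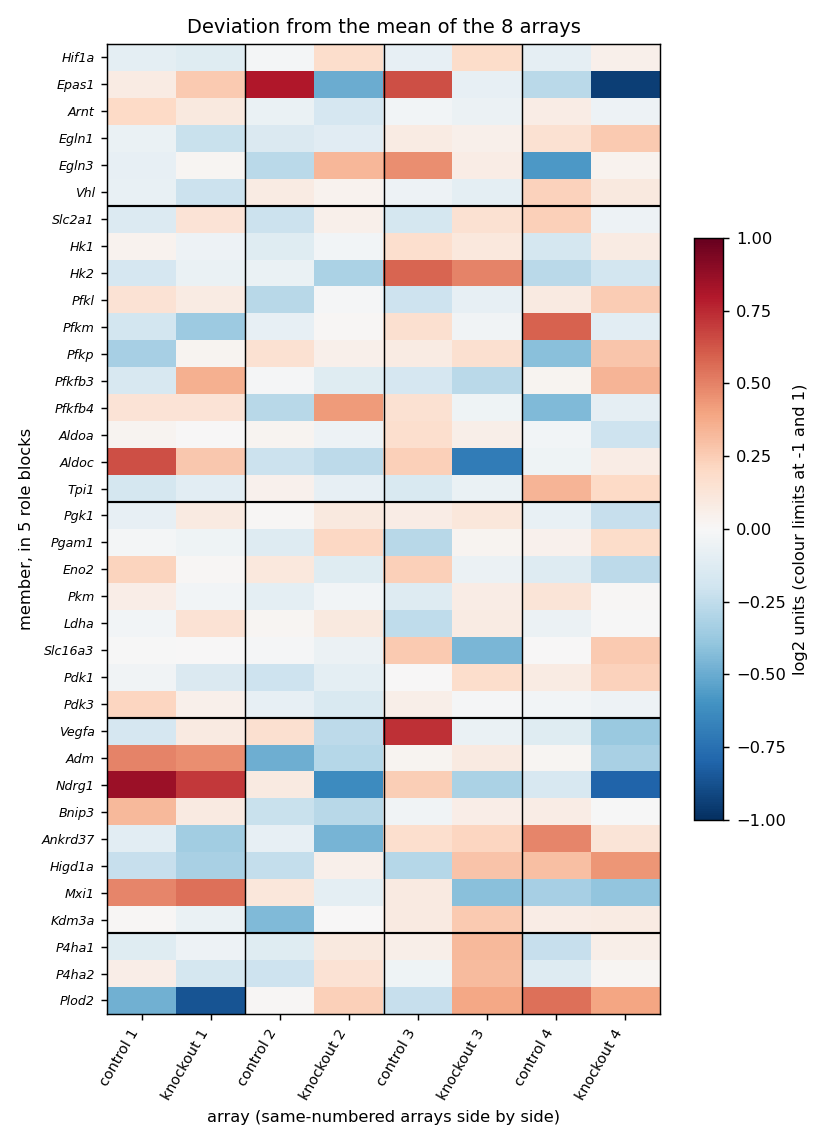
Deviation of each of the 36 genes from its mean over the 8 arrays, in log2 units by colour, with same-numbered control and knockout arrays side by side and lines between role groups. Ndrg1, Adm and Mxi1 are high and Plod2 low in the leftmost pair of columns, and the glycolytic enzymes in the upper-middle blocks are mostly pale.

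Related genes outside the 40 gave like counts. The list of neighbours in glycolysis and pyruvate use held 37 symbols, with Pkl and Pklr naming the same gene. Of these neighbours 27 were tested and 0 passed in either direction in the unpaired or the paired fit (0 at an unadjusted limma p under 0.05 in either). Those with the smallest paired p were Hk3 (log2 difference 0.34, SE 0.25), Pgd of the pentose phosphate pathway (0.10, SE 0.11) and Gpd2 (0.11, SE 0.13) above 0, and Eno3, the muscle enolase (-0.27, SE 0.23), Tkt, transketolase (-0.20, SE 0.21), and Galm (-0.12, SE 0.16) below 0. For replicate number 3 of the 27 (11.1%) were called, the pyruvate dehydrogenase kinase Pdk4, the lactate transporter Slc16a1 and Eno3, a share near the 9.37% of all genes. Pdk4 averaged 2789 on the arrays numbered 1 and 977 to 1260 on the others.

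The list of other hypoxia genes held 44 symbols, some of them 2 names of the same gene, such as Tceb1 and Eloc. Of these genes 36 were tested, and 0 passed between the groups in either fit. At an unadjusted limma p under 0.05 the unpaired fit held 0 and the paired fit 4. These were Fam162a (log2 difference 0.22, SE 0.14) and Tmem45a (0.20, SE 0.16) above 0 and Ccng2, an inhibitory cyclin (-0.32, SE 0.26), and Arnt2 (-0.35, SE 0.38) below 0. Next by paired p were Pgf, a vessel growth factor (0.61, SE 0.50), and Bhlhe40 (-0.19, SE 0.24). Replicate number called 10 of these 36 (27.8%), against 9.37% of all genes. Ccng2 (7263 on the arrays numbered 1 against 3338 to 4692) and Cited2, which competes with HIF for its coactivator (10294 against 5902 to 7030), were highest on the arrays numbered 1. Ddit4, an inhibitor of growth signalling (5205 against 7524 to 12595), Bhlhe40 (2643 against 3756 to 5392), Ero1a (2538 against 3201 to 4555) and the cytokine Mif (18947 against 26025 to 39819) were lowest there. Hypoxia genes thus varied with replicate number in both directions.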

How the data were processed

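RNA of 8 samples was measured on Affymetrix arrays, 1 array each. Per the submitters' processing notes the authors used GCOS 1.3 and MAS5. They deposited a linear intensity (signal) for each probe set, whose 2% trimmed mean is 1500 on all arrays. Other normalization was not given in the sources used here. The number of arrays limits the precision.

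Signals were converted to log2 after adding 73.1, the 20th percentile of all values, which understates fold changes of dim probe sets. Array controls (64) were dropped, and the brightest 60% of probe sets by mean were tested. For each gene the brightest tested probe set that the platform annotation gives 1 symbol was used. All 79 probe sets of the described genes matched RefSeq by gene ID, with 0 changed symbols. Two-sided tests used limma 3.58.1 in R 4.3.3 (lmFit, eBayes with trend). P-values were adjusted by Benjamini-Hochberg over every probe set tested, with 0.05 as threshold. The statistics code was checked on simulated data. Figures used Python 3.11.15 and matplotlib 3.10.9.

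Replicate numbers come from the labels. Deviations from group means correlated at 0.189 to 0.372 between same-numbered arrays and -0.347 to 0.149 between others, so every pair exceeded 0.1 and the samples were treated as paired by number. The unpaired fit stayed the main fit.

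The 40 genes, role groups and neighbour lists were chosen with earlier results of these data known. Values on every array are given for Hif1a, Vhl, Vegfa, Slc2a1 and Ldha, the 3 genes of each role group with the largest moderated t (2 for the collagen group) and the 5 with the largest F for replicate number. From each neighbour list the 3 genes per direction with the smallest paired p are named, and other neighbours named for replicate number were chosen after their values were seen. Alternatives covered the pseudocount, filter, scaling, trend, array weights, choice of probe set, the replicate block, and leaving out arrays or pairs.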

Additional observations from a re-analysis of the deposited data

Results flagged for a closer look

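In 6 of 72 sets of 4 arrays (36 genes in 2 groups), the highest or lowest array stood apart from the rest by more than Dixon's 95% critical value for 4 samples. Chance flags about 1 in 20 sets. Control 4 was the highest for Slc2a1 (7655.5 against at most 5885.5 on the other controls) and for Higd1a (17497.8 against 12082.6). Knockout 4 was the highest for Tpi1 (27683.1 against 23029.6) and the lowest for Pgk1 (23087.6 against 28788.8). Knockout 2 was the highest for Egln3 (490.6 against 398.8), and control 3 for Slc16a3 (698 against 570.4).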

How the results depend on the processing

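Between knockout and control 0 genes passed under every alternative run in the unpaired fit, of 36 tested (37 without the filter on dim probe sets and 32 with the upper 40%), and 0 of 36 with the replicate block and all pairs. Leaving out single arrays or pairs gave 0 to 1, the 1 being Ndrg1 in the paired fit without pair 1. The count for replicate number was 5 (9.37% of all genes called), and it was 2 without the filter (3.67%), 2 with median centring (3.54%), 0 without the trend (0%), and 6, with Higd1a added, with the median pseudocount (10.4%), the upper 40% (15.2%) or array weights (8.98%). Leaving out each number in turn gave 1 to 5. The class medians moved by less than the SD over pairs throughout.

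For single genes, 458 of 479 alternative values kept direction and call. Reversed values, all of differences that did not pass, were 0.0789 for Adm with array weights, and 0.151 for Adm and -0.0199 for Hif1a with the mean of all tested probe sets. With the replicate block on odd-numbered pairs they were -0.142 for Egln3, 0.00377 for Hk2, -0.101 for Pfkfb4 and 0.0147 for Adm, and on even-numbered pairs -0.0114 for Slc2a1. With the block they were 0.0309 for Hk2 without replicate 2, -0.105 for Plod2 without replicate 3 and 0.077 for Adm without replicate 4. Leaving out single arrays, Hk2 ranged from -0.209 to 0.15, Adm from -0.194 to 0.134 and Plod2 from -0.0705 to 0.379. The cause of these reversals was not tested.

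Precision is limited by 4 arrays per group and by signal over background. Signals of Egln3, Aldoc, Pfkfb3, Ankrd37 and Slc16a3 are low, and the added 73.1 understates their differences. With all pairs the block changed no call among the 36.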
